A study of Mus musculus with 56 samples.

Results

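Ribosome biogenesis and RNA polymerase I (Pol I) genes were followed in the kidney of mice that ate only in the daytime (DRF, inverted feeding) or only in the nighttime (NRF). The members were 45 mouse genes listed by name for their textbook roles. The rule uses no measured value, but the list was drawn up with earlier results of these data known. All 45 were among the 17027 genes of the deposited kidney table, and all 45 were among the 12246 genes with a mean of at least 1 TPM (transcripts per 1e6 transcripts, a level per length) that were tested. They fell into 6 roles, with 6 members in the Pol I machinery, 3 in the box C/D and 4 in the box H/ACA small nucleolar ribonucleoproteins, 6 other nucleolar proteins, 15 factors of the small (40S) and 11 of the large (60S) ribosomal subunit.

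The animals were 56 female C57BL/6J mice aged 9 weeks, none with a genetic change, kept for 7 days with food in the light phase (DRF) or in the dark phase (NRF, the control regimen). Kidneys were taken at zeitgeber time (ZT) 0, 4, 8, 12, 16, 20 and 24, where ZT0 is lights on and ZT12 lights off. This gave 14 groups of 4 mice, each mouse measured once at 1 time by RNA sequencing of whole kidney. NRF mice at ZT16 and ZT20 and DRF mice at ZT4 and ZT8 were inside the phase with food and are called fed. NRF mice at ZT4 and ZT8 and DRF mice at ZT16 and ZT20 are called fasted. ZT0, ZT12 and ZT24 lie on the border of the phases and entered only the fits over time. The hours at which food was given within a phase were not given in the sources used here, so ZT4 in DRF and ZT16 in NRF are described as 4 h after the start of the phase with food, and ZT8 in DRF and ZT20 in NRF as 8 h after it.

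A new ribosome begins in the nucleolus, where Pol I copies the long ribosomal RNA precursor. Small nucleolar ribonucleoproteins modify and fold this precursor, box C/D particles by adding methyl groups and box H/ACA particles by turning uridine into pseudouridine. Assembly factors of the 40S and 60S subunits then cut, fold and export it together with the ribosomal proteins. The process is costly for a cell, and in many tissues it is known to respond to nutrients and growth signals, in part through the transcription factor MYC. In whole kidney a lower level can come from fewer cells of a type or from less RNA per cell, and these cannot be told apart here.

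Promoter sequences are shown for the member of each role with the largest food statistic, since these members are described mouse by mouse further on. Each spans 250 bases before to 50 bases after the RefSeq start site of the gene on GRCm38.p6, 5′ to 3′ on the strand of the gene. Both strands were searched for CACGTG (the E-box that MYC and the clock factors can bind), CCGGAAG (an ETS-type motif), GCATGCGC (the core of the NRF1 motif) and CCAAT, and capitals mark the matches. Positions are counted from the start site. Polr1e (chr4:45018359-45018658, plus strand) held CCGGAAG on the opposite strand at 26. Nop56 (chr2:130274162-130274461, plus strand) held CCAAT on the opposite strand at -32. Nhp2 (chr11:51619523-51619822, plus strand) held CCAAT at -56 and, on the opposite strand, at -83 and -53, and CCGGAAG at -23. Nolc1 (chr19:46075597-46075896, plus strand) held CCGGAAG at -14. Nop2 (chr6:125131633-125131932, plus strand) held CACGTG at -60 and CCGGAAG at -38. Bysl (chr17:47611443-47611742, minus strand) held none of the 4.
Polr1e: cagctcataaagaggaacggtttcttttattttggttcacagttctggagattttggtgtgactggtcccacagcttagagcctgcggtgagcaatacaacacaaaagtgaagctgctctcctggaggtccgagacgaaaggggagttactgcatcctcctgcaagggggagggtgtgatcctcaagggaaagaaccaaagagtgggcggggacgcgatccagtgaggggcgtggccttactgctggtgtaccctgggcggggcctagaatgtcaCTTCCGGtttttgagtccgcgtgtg
Nop56: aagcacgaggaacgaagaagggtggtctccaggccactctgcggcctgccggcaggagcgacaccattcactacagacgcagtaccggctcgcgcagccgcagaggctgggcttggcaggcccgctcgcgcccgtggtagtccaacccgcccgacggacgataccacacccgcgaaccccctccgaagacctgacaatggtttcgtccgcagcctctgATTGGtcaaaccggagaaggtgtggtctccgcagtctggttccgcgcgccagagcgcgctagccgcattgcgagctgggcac
Nhp2: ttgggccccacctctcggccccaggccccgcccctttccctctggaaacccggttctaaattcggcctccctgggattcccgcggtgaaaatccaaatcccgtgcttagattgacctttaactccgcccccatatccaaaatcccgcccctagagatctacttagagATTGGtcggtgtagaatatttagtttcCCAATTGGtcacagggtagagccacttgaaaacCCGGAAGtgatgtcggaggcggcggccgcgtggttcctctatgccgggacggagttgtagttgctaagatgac
Nolc1: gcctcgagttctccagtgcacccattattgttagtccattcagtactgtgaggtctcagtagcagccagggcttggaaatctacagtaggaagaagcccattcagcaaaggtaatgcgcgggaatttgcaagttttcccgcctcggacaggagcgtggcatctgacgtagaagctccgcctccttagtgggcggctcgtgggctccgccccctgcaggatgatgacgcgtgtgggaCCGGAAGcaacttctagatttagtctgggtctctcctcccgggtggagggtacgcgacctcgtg
Bysl: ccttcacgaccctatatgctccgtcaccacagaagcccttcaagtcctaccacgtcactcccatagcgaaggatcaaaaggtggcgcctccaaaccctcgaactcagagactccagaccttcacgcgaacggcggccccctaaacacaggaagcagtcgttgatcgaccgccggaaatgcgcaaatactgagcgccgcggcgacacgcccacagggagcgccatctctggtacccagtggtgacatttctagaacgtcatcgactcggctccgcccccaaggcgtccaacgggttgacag
Nop2: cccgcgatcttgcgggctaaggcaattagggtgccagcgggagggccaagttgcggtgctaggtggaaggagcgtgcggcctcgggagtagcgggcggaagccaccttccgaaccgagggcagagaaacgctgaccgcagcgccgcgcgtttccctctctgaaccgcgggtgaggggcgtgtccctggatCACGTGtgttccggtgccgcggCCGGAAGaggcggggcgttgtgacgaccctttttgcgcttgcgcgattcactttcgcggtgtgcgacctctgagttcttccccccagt

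A promoter sequence was at hand for 40 of the 45 members. CACGTG was found in 9 of these 40 (22.5%) and in 10.2% of all 9762 promoters searched. CCGGAAG was found in 12 members (30%) and in 17.3% of all promoters. GCATGCGC was found in 2 members and in 5.17% of all promoters, and CCAAT in 13 members (32.5%) and in 37.7%. Among the 20 promoters of members that were higher 4 h after the start of the phase with food, CACGTG was found in 3 and CCGGAAG in 8, and among the 20 of the other members in 6 and 4. None of the 4 motifs contains another, and a match describes the letters and not a bound site.

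Each library held between 22.43 M and 24.84 M recovered reads (M, 1e6 reads). A member had between 160 (Gar1) and 7605 (Ncl) reads per library on average. The mean levels ran from 5.19 TPM for Wdr12 and 6.24 TPM for Rrp1b to 262 TPM for Nop10 and 279 TPM for Npm1. Proximal tubule marker genes summed to between 37439 and 162572 TPM and were present in every library. Adipose tissue markers exceeded 500 TPM in 7 libraries (563 to 3111 TPM) against a median of 15.6 TPM over all libraries, and each count below was recomputed without those 7. By group, these adipose markers had a median of 99.0 TPM in fed and 16.1 TPM in fasted NRF mice and 1.42 TPM in fed and 31.9 TPM in fasted DRF mice. Over all genes, the 3 libraries farthest from the mean of their group among the fed and fasted mice were DRF ZT4 replicate 4, NRF ZT16 replicate 2 and DRF ZT20 replicate 2, called far libraries, and each count was recomputed without them too. NRF ZT16 replicate 2 is also 1 of the 7 with adipose markers, as is NRF ZT12 replicate 1, the library farthest from its group of all 56.

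The first question was whether the members were higher with food, whatever the phase of the light. Averaged over both regimens and both fed times, 18 of the 45 members (40%) were higher in the fed mice and 4 were lower, against 13.7% higher and 21.8% lower among all genes tested (limma, Benjamini-Hochberg adjusted p under 0.05). The members' median difference was 0.06 on the log2(TPM + 1) scale and that of all genes was -0.03. Box C/D particles contributed 3 of 3 members, 40S factors 6 of 15, 60S factors 6 of 11, other nucleolar proteins 2 of 6 and Pol I 1 of 6, while none of the 4 box H/ACA members passed. The 4 lower members were Polr1c, a subunit shared by Pol I and Pol III, the histone chaperone Npm1, Noc4l and Rrs1. Leaving out replicate 2 of every group, which holds NRF ZT16 replicate 2 and DRF ZT20 replicate 2 of the far libraries, made the split 12 higher and 9 lower. Without the 3 far libraries it was 15 and 10, and without the 7 libraries with adipose markers it was 18 and 2.

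**Figure D1:**
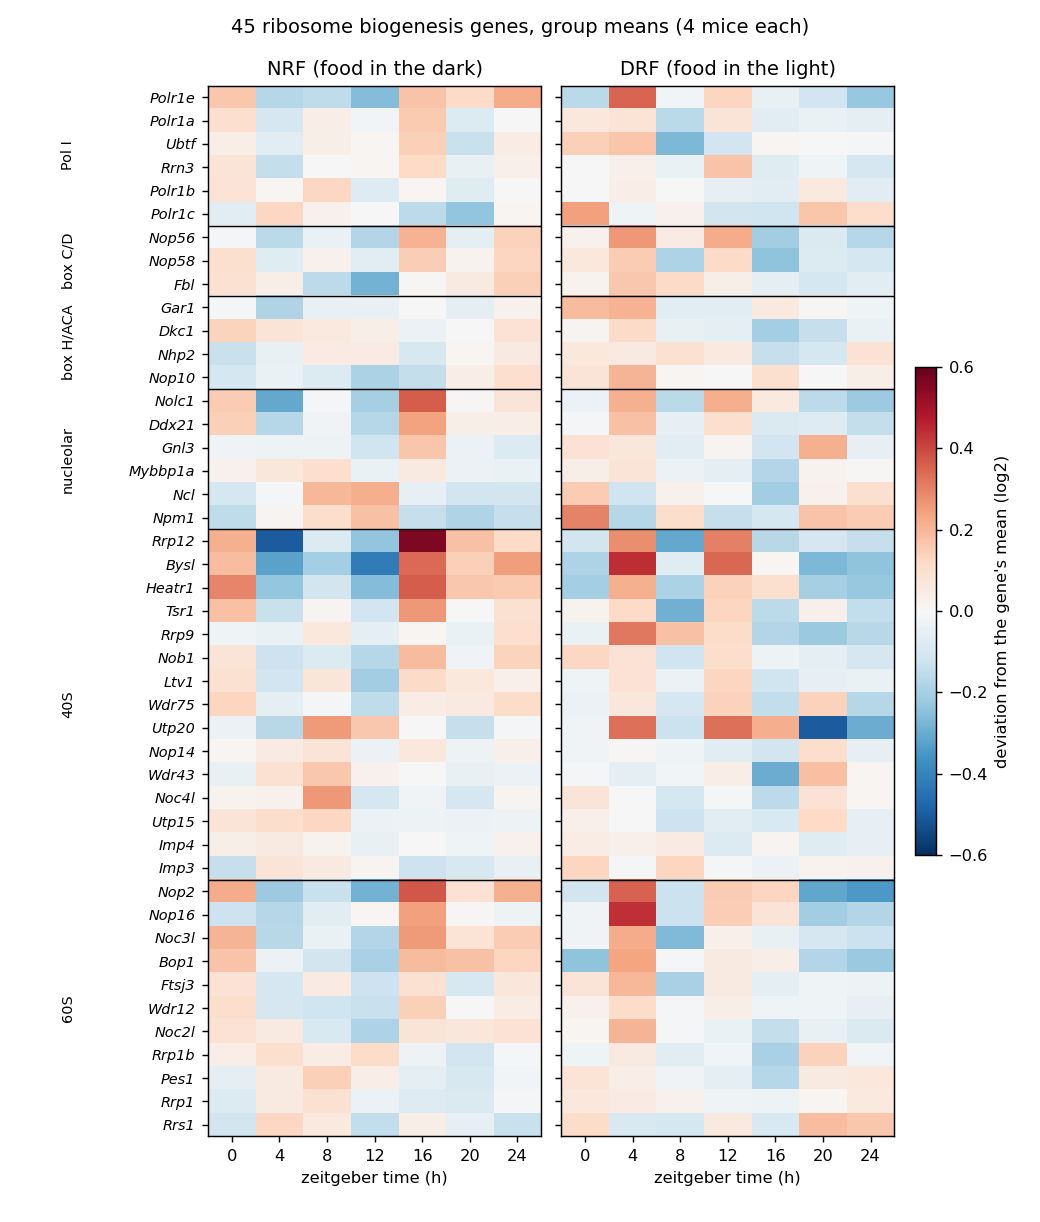
Heat map of the 45 members (rows, by role, sorted by the ZT4 and ZT16 food difference) against zeitgeber time in hours (columns), with NRF on the left and DRF on the right. Color is the mean of 4 mice minus the gene's mean over all groups, in log2 units, and it runs from -0.50 (Rrp12, NRF ZT4) to 0.56 (Rrp12, NRF ZT16). In DRF red gathers at ZT4, where 39 members were above their own mean, and in NRF it is spread over ZT16, ZT24 and ZT0, where 30, 31 and 29 were.

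The difference between fed and fasted mice was not the same at both times. The fasted mice were 4 h into the phase without food in the earlier comparison and 8 h into it in the later one, so time with and time without food cannot be told apart. In NRF, ZT16 was the time with the highest group mean for 20 members, and in DRF it was ZT4 for 22 members. The lowest group mean fell at ZT12 in NRF for 23 members and at ZT16 in DRF for 17. At DRF ZT4, 39 of the 45 members were above their own mean over all groups, at DRF ZT8 11 were and at DRF ZT12 28 were. In NRF the counts were 30 at ZT16, 17 at ZT20, 31 at ZT24 and 29 at ZT0, so that ZT16 did not stand apart from the border times.

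At 4 h after the start of the phase with food, 22 members (48.9%) were higher in fed than in fasted mice and 0 were lower, against 9.20% higher and 11.7% lower among all genes tested. By limma with an unadjusted p under 0.05, 26 were higher and 1 was lower, and limma with voom weights also called 0 lower. The split was 15 and 1 without replicate 2 of every group, 21 and 1 without the 3 far libraries and 24 and 0 without the 7 libraries with adipose markers. The median difference of the members was 0.18 log2 units, and that of all genes was -0.01. At 8 h, 5 members were higher and 12 were lower, against 10.1% and 18.1% of all genes, with a median of -0.02 for the members and -0.04 for all genes. That late split moved with the scaling, to 8 higher and 11 lower with median-of-ratios factors, 9 and 10 with CPM (counts per 1e6 reads), 8 and 7 with the deposited values and 9 and 11 with voom weights. It was 6 and 8 without the 7 libraries with adipose markers and 4 and 17 without the 3 far libraries, and it fell to 5 and 3 without replicate 3 and to 5 and 5 without replicate 4.

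The change between both times was tested directly, by a contrast added after the data were seen. The food difference was larger at 4 h than at 8 h for 17 members and smaller for 0, against 5.88% and 3.81% of all genes. At an unadjusted p under 0.05 the limma counts were 28 and 1. Without replicate 3 of every group 8 members passed, and without replicate 4, 6, all of them larger at 4 h. The median of this difference was 0.21 log2 units for the members and 0.03 for all genes. By name, Polr1e, Bysl, Nop2 and Bop1 were higher at both times, Ubtf and Ftsj3 were higher at 4 h and lower at 8 h, and 16 members were higher at 4 h without passing at 8 h. A further 10 members were lower at 8 h without passing at 4 h.

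**Figure D2:**
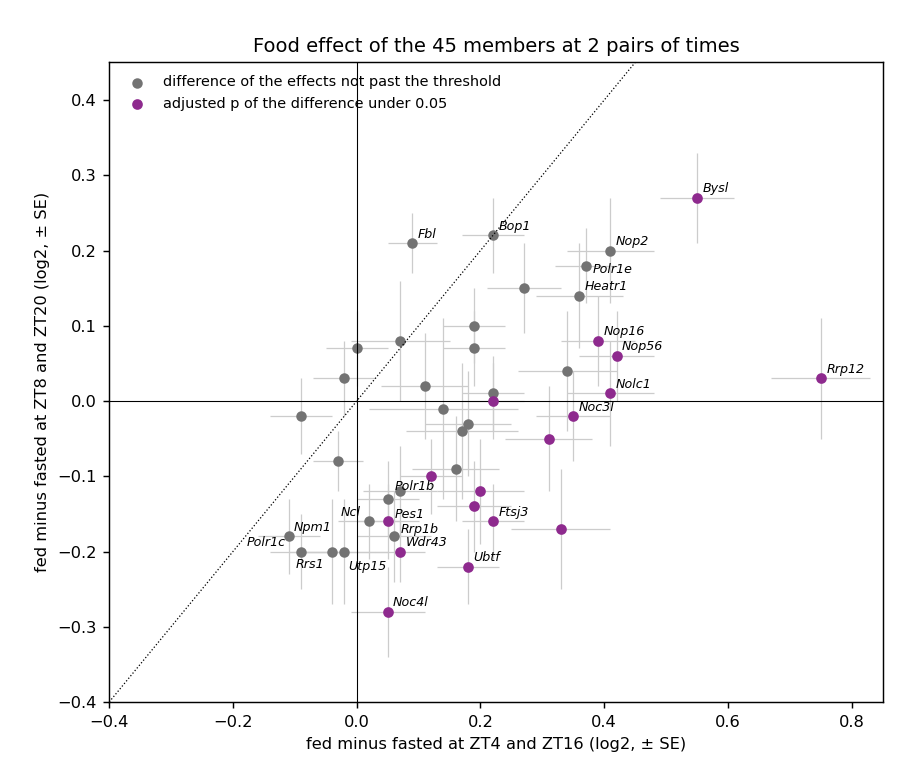
Fed minus fasted difference of each of the 45 members 4 h (ZT4 and ZT16, x axis) and 8 h (ZT8 and ZT20, y axis) after the start of the phase with food, in log2 units with SE, averaged over both regimens. Purple points are the 17 members whose 2 differences differed past the threshold, and the dotted line marks equal differences. Rrp12 lies farthest to the right at 0.75 and Noc4l lowest at -0.28.

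Pol I transcribes the ribosomal RNA genes from a promoter marked by the factor UBTF, with RRN3 joining the polymerase to it. Polr1e, a subunit that helps Pol I start (chr4:45018583-45036565, GRCm38), had 11.1, 9.94, 10.02 and 10.8 TPM in the 4 NRF mice at ZT16 and 8.17, 7.93, 8.62 and 7.43 TPM in those at ZT4. The DRF mice had 11.8, 12.9, 11.8 and 11.4 TPM at ZT4 and 7.65, 9.07, 8.66 and 10.2 TPM at ZT16. The fed and fasted mice of these times did not overlap in either regimen. The fold was 1.27 in NRF (limma adjusted p = 1.9e-04) and 1.31 in DRF (adjusted p = 4.8e-05), on the log2(TPM + 1) scale as all folds here.

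Ubtf, named after its values were seen, showed the turn between both times. The DRF mice had 65.5, 60.9, 59.1 and 67.7 TPM at ZT4, and 51.3, 48.9, 42.6 and 43.9 TPM at ZT8. The fasted DRF mice had 61.4, 55.9, 57.7 and 52.3 TPM at ZT16 and 56.1, 46.0, 60.7 and 64.0 TPM at ZT20. The ZT4 mice thus overlapped with fasted mice of both times, while the ZT8 mice overlapped with the 1 mouse at 46.0 TPM. Over both regimens Ubtf was 0.18 ± 0.05 (SE) higher in log2 at 4 h (adjusted p = 0.005) and 0.22 ± 0.05 lower at 8 h (adjusted p = 8.2e-04), and these effects differed by 0.40 (adjusted p = 1.4e-04). Neither regimen alone passed at both times in limma. In NRF the differences were 0.21 at 4 h (adjusted p = 0.015) and -0.17 at 8 h (adjusted p = 0.061). In DRF they were 0.15 (adjusted p = 0.11) and -0.27 (adjusted p = 0.007). The ZT20 value of 46.0 TPM came from DRF replicate 2, 1 of the 3 far libraries.

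The largest Pol I subunit Polr1a was higher at 4 h as well (0.20 ± 0.07, adjusted p = 0.038). Rrn3 had a difference of 0.18 ± 0.07 that did not pass (adjusted p = 0.060). The second-largest subunit Polr1b was lower at 8 h (-0.13 ± 0.05, adjusted p = 0.047). This call held in 7 of 16 alternatives and under 0 of the 4 other scalings. Within NRF the limma difference of Polr1b at 8 h was -0.20 (adjusted p = 0.024), and within DRF it was -0.06 (adjusted p = 0.63). Polr1c was the member whose lower level with food held under all alternatives run, with medians of 33.6 TPM in fed and 41.0 TPM in fasted NRF mice. Its lowest and highest values over 8 mice were 30.4 and 35.4 TPM fed and 35.1 and 45.3 TPM fasted in NRF, so that these groups met only at their ends. In DRF the fed range of 36.2 to 43.0 TPM lay inside the fasted range of 32.0 to 46.1 TPM.

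Box C/D particles carry the methyltransferase fibrillarin (Fbl) on a scaffold of NOP56 and NOP58. Nop56 (chr2:130274430-130279313) had 28.6, 32.6, 28.7 and 27.4 TPM in NRF at ZT16 and 20.1, 20.1, 24.7 and 25.1 TPM at ZT4. In DRF it had 29.2, 29.4, 29.6 and 33.5 TPM at ZT4 and 20.8, 20.8, 22.6 and 22.4 TPM at ZT16. All fed mice lay above all fasted mice of these times in each regimen, at a fold of 1.29 in NRF (adjusted p = 4.7e-04) and 1.39 in DRF (adjusted p = 3.8e-05). By 8 h the fed NRF mice had 23.1, 23.7, 23.2 and 26.9 TPM and the fasted ones 28.9, 20.1, 24.1 and 25.5 TPM, and the groups overlapped. Nop58 was also higher at 4 h (0.31 ± 0.07, adjusted p = 0.001). Fbl had 0.09 ± 0.04 at 4 h, which did not pass (adjusted p = 0.11), and 0.21 ± 0.04 at 8 h (adjusted p = 1.3e-04). These effects did not differ past the threshold in limma (-0.12 ± 0.06, adjusted p = 0.21). In DRF the Fbl difference was 0.22 at both 4 h (adjusted p = 0.006) and 8 h (adjusted p = 0.010). In NRF it was -0.03 at 4 h (adjusted p = 0.77) and 0.21 at 8 h (adjusted p = 0.005).

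Box H/ACA particles hold the pseudouridine synthase dyskerin (Dkc1) with GAR1, NHP2 and NOP10. None of the 4 passed at either time over both regimens. Nhp2 (chr11:51619735-51623714), which had the largest food statistic of these 4, had medians of 82.4 TPM (69.5 to 96.4) in fed and 83.3 TPM (74.7 to 99.1) in fasted NRF mice. In DRF the medians were 90.8 TPM (81.3 to 95.7) fed and 81.0 TPM (66.7 to 85.6) fasted. The groups overlapped in both regimens, and the food difference was 0.08 ± 0.06 (adjusted p = 0.30). Nop10, among the most abundant members, had 0.04 ± 0.03 (adjusted p = 0.44). It was the only member whose mean over all times differed between the regimens, being 0.13 log2 units higher in DRF, against 3.14% of all genes higher and 6.12% lower. For 0 members was the mean lower in DRF, with 2 at an unadjusted p under 0.05 and 0 lower with voom weights.

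Among the other nucleolar proteins, Nolc1, a chaperone of small nucleolar ribonucleoproteins (chr19:46075863-46085530), moved most with food. In NRF it had 36.5, 40.8, 35.4 and 39.2 TPM at ZT16 and 24.9, 17.3, 26.4 and 26.8 TPM at ZT4. The DRF mice had 35.7, 33.5, 29.7 and 38.2 TPM at ZT4 and 33.9, 28.3, 31.2 and 29.2 TPM at ZT16. The NRF groups were wide apart and the DRF groups overlapped. The fold was 1.59 in NRF (adjusted p = 5.9e-07) and 1.11 in DRF (adjusted p = 0.28). The RNA helicase gene Ddx21 (0.34 ± 0.08, adjusted p = 0.001) and the nucleostemin gene Gnl3 (0.19 ± 0.06, adjusted p = 0.010) were higher at 4 h too.

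Averaged over both regimens, the genes of the abundant nucleolar proteins nucleolin (Ncl) and nucleophosmin (Npm1) went the other way at 8 h. Npm1 had medians of 247 TPM (233 to 267) in fed and 282 TPM (247 to 327) in fasted NRF mice, and 271 TPM (233 to 310) against 268 TPM (236 to 350) in DRF. The groups overlapped in both regimens. At 8 h Npm1 was 0.18 ± 0.05 lower (adjusted p = 0.009) and Ncl 0.16 ± 0.05 lower (adjusted p = 0.007). In NRF alone the limma difference at 8 h was -0.29 for Npm1 (adjusted p = 0.002) and -0.31 for Ncl (adjusted p = 1.3e-04). In DRF it was -0.07 for Npm1 (adjusted p = 0.60) and 0.00 for Ncl, and neither passed. Both calls over the regimens were lost with the deposited values and without replicate 3 or replicate 4. Mybbp1a, which had 1 of the smallest food statistics, showed medians of 48.1 TPM fed and 50.2 TPM fasted in NRF and of 48.6 TPM and 43.8 TPM in DRF.

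The 40S factors include the U3 small nucleolar RNA proteins and the late cytoplasmic maturation factors. Rrp12, an export factor of pre-ribosomes (chr19:41862851-41896173) named after its values were seen, had the largest early difference of all members. In NRF it had 11.8, 13.8, 12.7 and 12.6 TPM at ZT16 and 6.29, 4.62, 5.49 and 6.07 TPM at ZT4. In the DRF mice it was 9.92, 10.5, 9.15 and 11.6 TPM at ZT4 and 8.29, 6.13, 7.06 and 7.84 TPM at ZT16. The fed mice lay above the fasted ones in each regimen, by 2.08-fold in NRF (adjusted p = 2.4e-10) and 1.36-fold in DRF (adjusted p = 0.002).

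At 8 h Rrp12 had 7.34, 7.44, 5.36 and 6.18 TPM in the fed DRF mice at ZT8 and 6.85, 7.90, 7.47 and 8.56 TPM in the fasted ones at ZT20. These groups overlapped. Over both regimens its food difference was 0.75 ± 0.08 at 4 h (adjusted p = 6.4e-10) and 0.03 ± 0.08 at 8 h (adjusted p = 0.83), and the effects differed by 0.72 ± 0.11 (adjusted p = 1.7e-05). The value at 8 h averages opposite signs, 0.26 ± 0.11 in NRF (limma adjusted p = 0.068) and -0.20 ± 0.11 in DRF (adjusted p = 0.23). Neither of these passed. At ZT12 in DRF it ran from 8.99 to 13.3 TPM, and each mouse lay above each DRF mouse at ZT8.

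Bysl (bystin, needed for the small subunit, chr17:47599331-47611492) was higher at both times over both regimens. In NRF it had 18.4, 19.0, 19.1 and 20.2 TPM at ZT16 and 17.96, 19.1, 14.6 and 15.2 TPM at ZT20. The fasted NRF mice had 12.2, 11.8, 11.1 and 12.0 TPM at ZT4 and 14.9, 11.6, 12.1 and 13.0 TPM at ZT8. At ZT16 the fed mice were above all fasted NRF mice, and at ZT20 they met only 1 of them. In the DRF mice it was 21.7, 20.6, 20.7 and 19.8 TPM at ZT4 and 14.9, 16.2, 13.0 and 13.0 TPM at ZT8. The fasted DRF mice had 15.5, 14.01, 15.5 and 15.3 TPM at ZT16 and 12.4, 11.5, 12.4 and 12.7 TPM at ZT20. The ZT4 mice lay above all of them, and the ZT8 mice above those at ZT20 alone. The food difference was 0.41 ± 0.04 over all 4 times (adjusted p = 2.4e-10), 0.55 ± 0.06 at 4 h (adjusted p = 2.6e-09) and 0.27 ± 0.06 at 8 h (adjusted p = 6.2e-04). By regimen, the limma difference of Bysl at 8 h was 0.35 ± 0.09 in NRF (adjusted p = 0.001). In DRF it was 0.20 ± 0.09 and did not pass (adjusted p = 0.12). Whole reads could not be recovered for Bysl or for Tsr1, whose TPM rest on annotated length alone.

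Heatr1 (0.36 ± 0.07, adjusted p = 2.1e-04), Tsr1 (0.33 ± 0.08, adjusted p = 0.002) and the U3 protein gene Rrp9 (0.27 ± 0.06, adjusted p = 0.001) were also higher at 4 h. So were Nob1, whose product makes the final cut of the small subunit RNA, and Ltv1, at 0.22 each. Noc4l, Wdr43 and Utp15 were lower at 8 h. Noc4l, named after its values were seen, had 14.3, 15.2, 15.5 and 15.8 TPM in fed NRF mice at ZT20 and 21.3, 16.3, 22.2 and 19.8 TPM in fasted ones at ZT8, with no overlap (adjusted p = 0.001). In DRF the fed mice had 17.7, 14.8, 13.6 and 14.7 TPM at ZT8 and the fasted ones 17.9, 15.2, 17.8 and 19.3 TPM at ZT20, which overlapped (adjusted p = 0.13). Imp4, with 1 of the smallest food statistics of all members, had medians of 12.8 TPM fed and 13.2 TPM fasted in NRF and of 13.5 TPM and 12.5 TPM in DRF.

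The 60S factors include the methyltransferase NOP2 and the PeBoW complex of PES1, BOP1 and WDR12. Nop2 (chr6:125131909-125144753) had 37.0, 39.5, 43.3 and 43.5 TPM in NRF at ZT16 and 27.0, 22.0, 30.1 and 28.5 TPM at ZT4. The DRF mice had 40.02, 40.8, 37.3 and 43.1 TPM at ZT4 and 33.6, 33.0, 38.2 and 32.5 TPM at ZT16. The NRF groups did not overlap and the DRF groups met at 1 mouse. The fold was 1.51 in NRF (adjusted p = 4.7e-06) and 1.17 in DRF (adjusted p = 0.084).

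Averaged over both regimens, the 3 genes of the PeBoW complex did not move together. Bop1 was higher by 0.22 ± 0.05 at both 4 h (adjusted p = 0.002) and 8 h (adjusted p = 8.7e-04). Wdr12, with 5.19 TPM the least abundant member, was higher at 4 h (0.19 ± 0.05, adjusted p = 0.002). Pes1 had 0.05 ± 0.05 at 4 h (adjusted p = 0.49) and was lower at 8 h (-0.16 ± 0.05, adjusted p = 0.009). By regimen, limma gave Pes1 0.21 in DRF (adjusted p = 0.015) and -0.11 in NRF (adjusted p = 0.22) at 4 h. At 8 h its difference was -0.24 in NRF (adjusted p = 0.005) and -0.08 in DRF (adjusted p = 0.46). In DRF at 4 h Bop1 had 0.21 (adjusted p = 0.033) and Wdr12 0.14 (adjusted p = 0.12). Nop16 (0.39 ± 0.06, adjusted p = 5.9e-06) and Noc3l (0.35 ± 0.06, adjusted p = 2.9e-05) were higher at 4 h without passing at 8 h. Rrs1 and Rrp1b were lower at 8 h, the latter at a mean of 6.24 TPM.

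**Figure D3:**
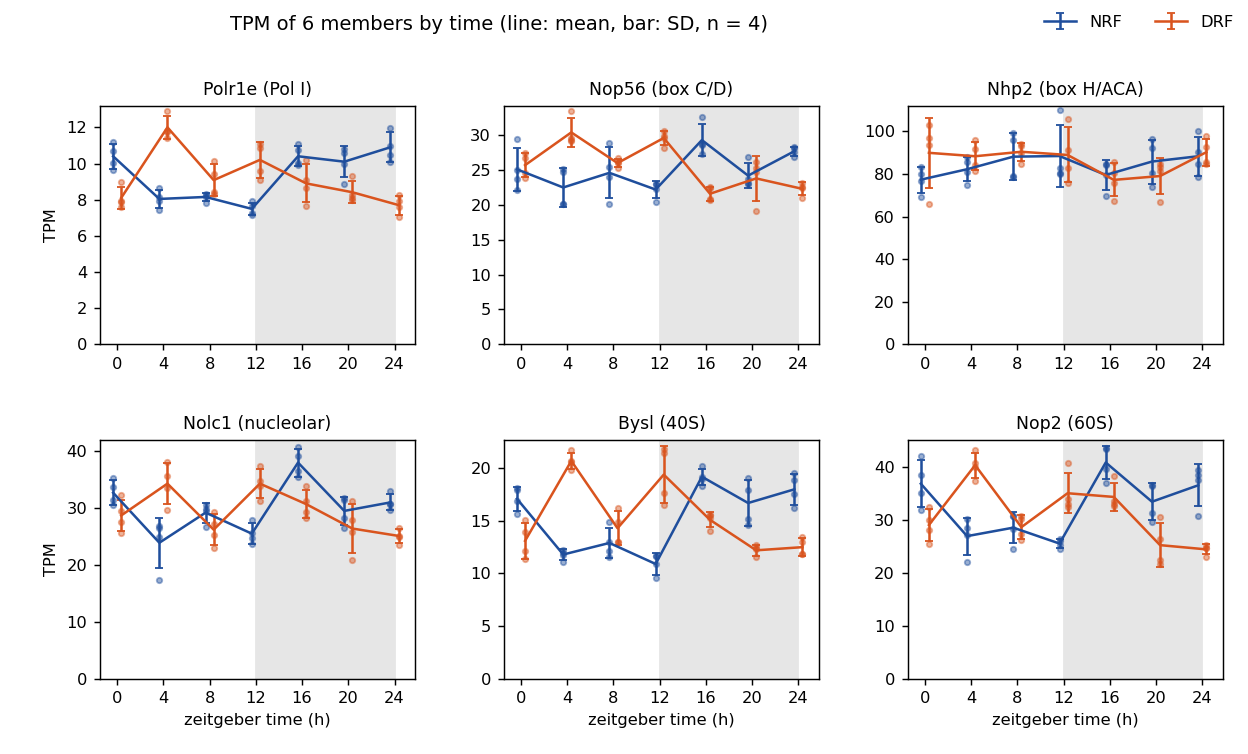
TPM of the member with the largest food statistic in each of the 6 roles against zeitgeber time in hours, for NRF (blue) and DRF (orange). Dots are mice, lines group means and bars SD (n = 4), and the grey area is the dark phase. For Polr1e, Nop56, Nolc1, Bysl and Nop2 the NRF line has its maximum or a maximum at ZT16 and the DRF line maxima at ZT4 and ZT12 with a dip at ZT8, while Nhp2 has overlapping groups.

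The second question was how far each regimen alone showed the difference, since the light phase of the meal differs between them. In NRF, ZT16 minus ZT4 was higher for 20 members and lower for 2 (Polr1c and Imp3), against 8.80% and 25.1% of all genes. Without replicate 2 of every group it was 10 higher and 6 lower. In DRF, ZT4 minus ZT16 was higher for 18 members and lower for 0, against 18.8% and 6.17% of all genes, and none was lower at an unadjusted p under 0.05 or with voom weights either. Without replicate 2 it was 10 higher, and without replicate 4, 11. For 9 members the difference passed in both regimens, namely Polr1e, Nop56, Bysl, Ltv1, Rrp12, Nop16, Bop1, Noc3l and Ftsj3. It passed as higher in NRF alone for 11 and in DRF alone for 9, and in neither for 16. Of all genes tested, 1.68% were higher in both, 7.12% in NRF alone and 17.1% in DRF alone.

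At 8 h the regimens gave fewer calls. NRF ZT20 minus ZT8 was higher for 5 members and lower for 8, against 11.5% and 22.2% of all genes, and the split was 10 and 7 with median-of-ratios factors. DRF ZT8 minus ZT20 was higher for 2 (Fbl and Rrp9) and lower for 5, against 6.95% and 6.12%, with 9 lower under median-of-ratios factors, 11 lower without the 3 far libraries and 2 lower without the 7 libraries with adipose markers. Over both fed times, 13 members were higher and 8 lower in NRF, against 12.4% and 31.4% of all genes, and the split was 24 and 7 with median-of-ratios factors, 24 and 4 with CPM and 23 and 3 with the deposited values. In DRF 10 were higher and 0 lower, against 17.2% and 7.81%, with 1 lower at an unadjusted p under 0.05 and 5 higher without replicate 2. The 6 members higher in both regimens over both times compare with 2.70% of all genes.

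**Figure D4:**
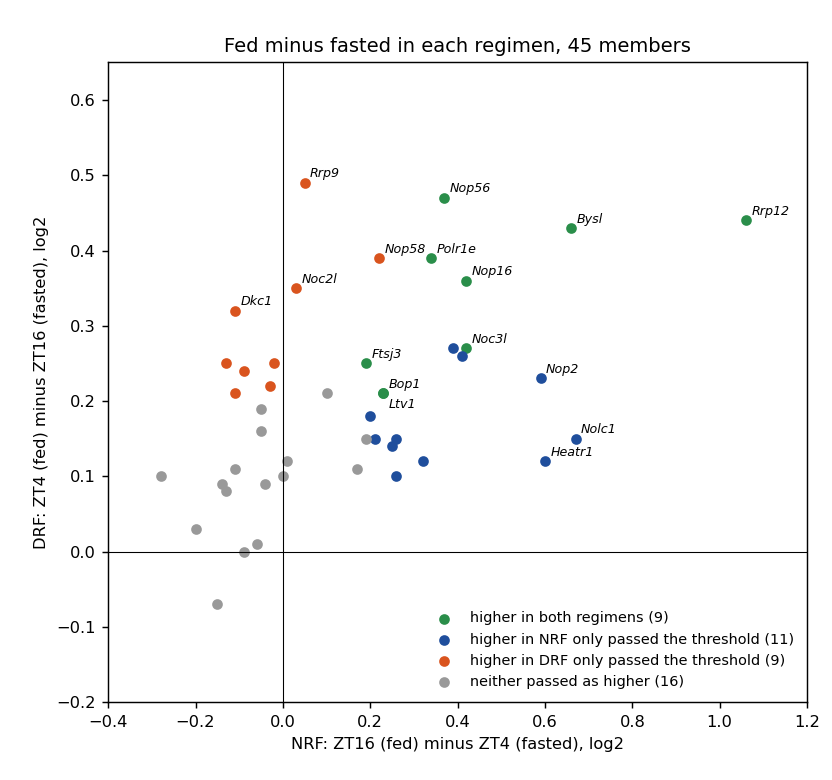
Difference between ZT16 (fed) and ZT4 (fasted) in NRF on the x axis and between ZT4 (fed) and ZT16 (fasted) in DRF on the y axis, in log2 units, 1 point per member (45). Green marks the 9 members higher in both regimens, blue the 11 that passed in NRF alone, orange the 9 that passed in DRF alone and grey the other 16.

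The food difference was compared between the regimens by the light term, which is fed minus fasted in DRF less that in NRF, divided by 2. The same term is ZT4 and ZT8 minus ZT16 and ZT20 averaged over both regimens. A food difference that varies with the regimen and a plain difference between light and dark cannot be told apart by it. This signed term was positive for 9 members and negative for 4, against 28.2% and 8.17% of all genes. Of the 9, Rrp9 and Dkc1 were higher in fed DRF mice, while Polr1c, Imp3, Pes1, Ncl, Rrp1 and Wdr43 were lower in fed NRF mice and did not pass in DRF, and Mybbp1a passed in neither regimen. The direction depended on the scaling, being 5 and 12 with median-of-ratios factors, 4 and 14 with CPM, 2 and 12 with the deposited values and 10 and 9 with voom weights. Rrp9 was the member that kept a positive call under all alternatives, with 15.8, 15.1, 14.9 and 15.4 TPM in DRF at ZT4 and 12.3, 9.62, 10.8 and 9.83 TPM at ZT16. In NRF it had 13.8, 13.0, 10.5 and 11.8 TPM at ZT16 and 10.9, 12.6, 12.1 and 11.4 TPM at ZT4. Thus the groups were apart in DRF and overlapped in NRF, and fed minus fasted was 0.45 ± 0.06 in DRF (adjusted p = 9.7e-07) and -0.02 ± 0.06 in NRF (adjusted p = 0.81). Rrp12, Heatr1, Nolc1 and Noc3l had the larger food difference in NRF, with 0.66 ± 0.08 against 0.12 ± 0.08 for Rrp12 and 0.43 ± 0.07 against 0.06 ± 0.07 for Heatr1.

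Proximal tubule markers also differed between these groups, but were higher with food in NRF and lower with food in DRF. Their summed median was 101504 TPM in fed and 80148 TPM in fasted NRF mice and 62535 TPM in fed and 83625 TPM in fasted DRF mice, summed over the 5 of 6 markers whose whole reads could be recovered and with most of the sum from Kap. Their part in the result was not tested. Proliferation markers summed to a median of 17.6 TPM fed and 22.4 TPM fasted in NRF and 15.8 TPM fed and 12.5 TPM fasted in DRF, and ranged from 8.25 to 31.5 TPM over all libraries.

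The third question was whether the daily rhythm of the members kept to the clock time or to the meal. A 24-h rhythm passed for 21 members (46.7%) in NRF and 13 (28.9%) in DRF, against 54.5% and 36.1% of all genes. The DRF count rested on few mice, being 3 without replicate 1, 4 without replicate 2, 7 without replicate 3 and 11 without replicate 4 of every group. In NRF 14 of the 21 peaked in the dark phase, between ZT16.0 and ZT23.8, and 7 in the light phase, between ZT6.0 and ZT9.7. In DRF 10 of the 13 peaked in the light phase, between ZT1.5 and ZT9.2, and Polr1c, Ubtf and Npm1 between ZT23.0 and ZT23.6.

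Rhythms passed in both regimens for 8 members, against 25.6% of all genes. Of these 8, the peaks lay at least 8 h apart for 4 and within 4 h for 0. Of the 3140 genes rhythmic in both regimens, 914 and 1163 fell into these classes. Among all genes tested these are 7.46% and 9.50%, beside 4 and 0 of the 45 members, so that the 4 lay near the share of all genes. Bysl moved from ZT20.1 to ZT8.9, Polr1e from ZT20.8 to ZT8.2 and Bop1 from ZT20.7 to ZT9.2, shifts of 11.3 ± 1.1, 11.5 ± 1.2 and 11.5 ± 1.2 h (SE). Npm1 moved from ZT9.0 to ZT23.0, from the light to the dark phase and thus in the opposite sense. Fbl, Noc2l, Polr1c and Pes1 moved by between 6.2 and 7.9 h.

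When the 24-h curves were set side by side at the same clock time, they differed between the regimens for 24 members (53.3%), against 45.5% of all genes. When the DRF curve was moved by 12 h, so that the phases with food lay on each other, they differed for 13 members (28.9%), against 46.0%, and for between 7 and 10 when 1 replicate of every group was left out. For 16 members the curves differed by the clock and did not pass by the meal (20.3% of all genes), for 5 the reverse held (20.8%), and for 8 both passed (25.2%). The NRF and DRF curves were farther apart by clock time than by meal time for 32 of the 45 members (71.1%), against 50.4% of all genes. A curve that did not pass is not shown to be equal.

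A 12-h term, which describes 2 maxima a day, passed for 13 members (28.9%) in DRF, a share near the 24.7% of all genes, and for 8 to 10 when 1 replicate of every group was left out. It passed for 1 member (Rrs1) in NRF, against 0.686%, where it no longer passed when any replicate of every group was left out. For 10 of the 13, including Bysl, Nop2, Nop16 and Nolc1, its first fitted maximum fell between 2.7 and 4.1 h after lights on. For Ncl, Npm1 and Wdr43 it fell between 9.4 and 10.3 h. The second maximum comes 12 h later, a spacing set by the term and not by the group means. In DRF the group means of Bysl, Nop2, Nop16 and Nolc1 were higher at ZT12 than at ZT16. For Bysl they deviated from its mean by 0.343 and 0.011 log2 units. Ubtf went the other way, at -0.113 and 0.012. Bysl was at 17.6, 16.6, 21.8 and 21.5 TPM at ZT12 in DRF, each above each DRF mouse at ZT8, and Nop2 at 32.5, 34.0, 32.9 and 40.6 TPM against 30.8, 30.1, 26.2 and 27.2 TPM. ZT12 is the end of the phase with food in DRF and its beginning in NRF, so ZT12 in DRF was assigned to neither state.

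The other genes of ribosome production, from lists of named factors, were read in the same fits. Of 41 other 60S factors tested, 23 were higher and 1 was lower at 4 h, and of 35 other 40S factors 12 were higher and 0 lower, beside 9.20% and 11.7% of all genes. The higher 40S count was 18 with voom weights and 19 with median-of-ratios factors or CPM, and the 0 lower stayed at 0 in limma under these and at an unadjusted p under 0.05. These lists were chosen with results of these data known, so their counts are a description. Nol9 rose by 0.36 (adjusted p = 6.6e-07), Wdr74 by 0.33 (adjusted p = 1.4e-06), Mphosph10 by 0.42 (adjusted p = 3.1e-04) and Utp18 by 0.34 (adjusted p = 4.1e-04) in log2 units. Nop53 was the 60S factor that was lower, at -0.17 (adjusted p = 0.005). Of 12 assembly factors of small nucleolar ribonucleoproteins 3 were higher, and of 13 exosome and precursor nuclease genes 5 were higher and 1, Xrn2, was lower.

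A list of further Pol I subunits, subunits shared with other polymerases and regulators of Pol I did not move one way. Of 18 tested, 4 were higher and 3 lower at 4 h, beside 9.20% and 11.7% of all genes. The genes named next had the largest food statistics of this list, and the 4 higher ones are not named. Myc, a transcription factor known to raise many ribosome biogenesis genes, was lower in fed mice, with differences of -0.59 log2 units at 4 h (adjusted p = 1.7e-05) and -0.38 at 8 h (adjusted p = 0.003). Taf1b, part of the Pol I promoter complex, was lower at both times as well (-0.36, adjusted p = 1.3e-05, and -0.33, adjusted p = 5.9e-05).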

How the data were processed

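RNA of whole mouse kidney was selected with oligo(dT) beads and sequenced as 100-base read pairs. HISAT2, Bowtie2 and RSEM with the genome builds mm10 and GRCm38.p6 are named in the submitters' processing notes. Strand is not marked by the library steps in the labels, so reads from a gene and an antisense partner cannot be told apart. The deposited values are called TPM by the authors and are handled here as a score, because they scaled with the logarithm of read counts divided by length within each library. Reads were recovered from the score with exon lengths of GENCODE M21, 98.65% of values of 89.4% of genes came out whole within 0.1 reads, and TPM were rebuilt from them. The design had expected TPM. The count test was not the main test, and limma with voom weights on the recovered reads was an alternative.

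limma 3.58.1 in R 4.3.3 was fitted to log2(TPM + 1) of the 12246 genes with a mean of at least 1 TPM, over all 56 libraries and with a variance trend. Differences are group means over 14 groups, rhythms are 24-h cosines with the same tool, and p-values were adjusted over all genes tested by Benjamini-Hochberg with a threshold of 0.05. The fits were tested on simulated data.

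The 45 members and all gene lists were chosen with earlier results of these data known. Values by sample are given for the member of each role with the largest food statistic, for the member with the largest light statistic and, as medians, for the pair with the smallest food statistic. The members lowest and highest in TPM are named, as are up to 3 called genes of each other list. Groups came from the labels. A library of NRF ZT24 has a column number that no label holds and was used as a mouse of its group without a number. Lengths of Nolc1, Wdr43, Rrp12 and Rrp1b were found by search. Counting intervals were not needed beside the spread between mice. Columns of samples not used numbered 0. Alternatives were other scalings, pseudocounts, filters and variance models, each replicate left out, the replicate number as a block and, added after the data were seen, 7 libraries with adipose markers or 3 far libraries left out and the contrasts of single times.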

Additional observations from a re-analysis of the deposited data

Results flagged for a closer look

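Among the members with values by sample, and for the mean deviation of all 45 members, 3 of 62 groups of 4 mice held a mouse far from the others by Dixon's test, where chance gives about 1 in 20. Nop56 was at 33.53 TPM in DRF ZT4 replicate 4 and between 29.15 and 29.56 TPM in the other mice of its group. Nhp2 was at 66.68 TPM in DRF ZT20 replicate 4 and between 81.60 and 84.47 TPM in the others. Bysl was at 14.01 TPM in DRF ZT16 replicate 2 and between 15.31 and 15.53 TPM in the others.

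The difference between fed and fasted mice was not the same in both regimens for 13 members, tested by the light term of the limma fit. This term is equally a difference between the light and the dark times. The values below are the full difference, before the division in the term. The signed difference of DRF less NRF was 0.47 log2 units for Rrp9, 0.29 for Dkc1, 0.25 for Polr1c, 0.24 for Imp3, 0.24 for Pes1, 0.22 for Ncl, 0.21 for Rrp1, 0.17 for Mybbp1a and 0.17 for Wdr43. For Polr1c, Imp3, Pes1, Ncl, Rrp1 and Wdr43 this came with a lower level in fed NRF mice and no call in DRF. It was -0.54 for Rrp12, -0.37 for Heatr1, -0.27 for Nolc1 and -0.22 for Noc3l, which were higher in fed NRF mice. Of the 9 with a positive value, 2 (Rrp9 and Dkc1) kept the call under all 4 other scalings, and of the 4 with a negative value, 4 did.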

How the results depend on the processing

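Of the 22 members higher 4 h after the start of the phase with food, 14 kept the call under all 16 alternatives and 22 under the 4 other scalings (median-of-ratios, counts per 1e6 reads, deposited values, voom weights). Of the 18 higher over both times 12 kept it under all 16, and of the 4 lower over both times 1 did. Of the 12 lower at 8 h 3 did, and of the 17 with a larger early effect 5 did. No call of these changed sign. With the replicate number as a block (a replicate block), the food effect again gave 18 higher and 4 lower members, and the 12-h term in NRF gave 0 members instead of 1. The numbers did not pair the mice, since same-numbered mice had a median correlation of deviations of 0.00 (-0.79 to 0.76, 351 pairs). The 12-h term in NRF also gave 0 without the 7 libraries with adipose markers and without the 3 far libraries. The light effect at ZT8 and ZT20 alone called 4 members. The difference of the means over all times called 6 members with median-of-ratios factors, 7 with counts per 1e6 reads, 5 with the deposited values and 3 with voom weights. DRF ZT8 minus ZT20 called 7, and 12 with median-of-ratios factors, 11 with counts per 1e6 reads, 4 without the 7 libraries and 13 without the 3 far libraries. With 1 replicate of every group left out, the counts ran from 7 to 12 for light, 5 to 11 for fed minus fasted in DRF, 3 to 11 for the DRF rhythm, 7 to 10 for the meal-aligned difference, 8 to 10 for the 12-h term in DRF, 0 to 0 for that in NRF, 0 to 1 for the mean over all times, 8 to 18 for the food effect at 8 h, 6 to 18 for early minus late, 10 to 16 for DRF ZT4 minus ZT16 and 1 to 8 for DRF ZT8 minus ZT20. Without the unnumbered NRF ZT24 library these were 13, 10, 13, 13, 13, 1, 1, 17, 17, 18 and 7. Leaving out replicates also leaves 3 mice a group, and the counts moved both down and up. The causes of these and the other moves were not tested. How depth limits the members with few reads, such as Gar1 with 160 reads a library, was not tested.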

Other observations

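Gene groups next to ribosome assembly were read in the same limma fits, as counts beside all genes tested. Of 70 ribosomal protein genes tested, 2 were higher and 0 lower at 4 h after the start of the phase with food, beside 9.20% and 11.7% of all genes, and the unadjusted counts were 6 and 0, with 2 and 0 under voom weights. The median of these genes was 0.05 log2 units at 4 h and that of the 45 biogenesis members was 0.18. By the light term 44 ribosomal protein genes were higher and 0 lower, beside 28.2% and 8.17% of all genes. In fed DRF mice 40 were higher and 0 lower, beside 17.2% and 7.81%. In fed NRF mice 0 were higher and 10 lower, beside 12.4% and 31.4%. The NRF split was 1 higher and 2 lower with voom weights and 1 and 1 with median-of-ratios factors or CPM. The light count depended on the scaling, being 33 with voom weights, 8 with median-of-ratios factors and 6 with CPM, and 0 were lower under each of these or at an unadjusted p under 0.05. In fed DRF mice the counts were 41, 21 and 21 higher under these, with 0 lower. Rpl36al, at a mean of 203 TPM, was higher with food at 0.21 ± 0.04 (SE, adjusted p = 2.7e-05).

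Aminoacyl-tRNA synthetases, which load tRNA with amino acids, were higher with food in 8 of 19 genes and lower in 3, beside 13.7% and 21.8% of all genes. The higher count was 13 with voom weights, median-of-ratios factors or CPM. At 4 h 6 were higher and 1 was lower, and at 8 h 7 and 2. Farsa was higher at 0.24 ± 0.03 (adjusted p = 3.7e-08) and Cars at 0.26 ± 0.04 (adjusted p = 2.5e-07), while Qars was lower at -0.19 ± 0.03 (adjusted p = 6.3e-08). Pol III genes, which make tRNA and 5S RNA, were lower in 5 of 21 and higher in 0 over both times, a lower share near the 21.8% of all genes, and at an unadjusted p under 0.05 the counts were 6 and 1. With voom weights 4 were lower and 2 higher, and with median-of-ratios factors or CPM 3 and 2. Maf1, the repressor of Pol III, was lower at -0.20 ± 0.03 (adjusted p = 3.7e-06), and Polr3gl at -0.16 ± 0.04 (adjusted p = 6.4e-04).

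Marker genes of other tissues and cells were read beside the members, summed over those with recovered whole reads. These sums ran from 462 to 1798 TPM for immune cells (7 of 7 markers), 222 to 702 TPM for liver (6 of 7), 56.3 to 138 TPM for pancreas (2 of 7), 57.3 to 158 TPM for blood (2 of 6, without the globin genes), 3.95 to 7.11 TPM for adrenal gland (4 of 7) and 4487 to 10523 TPM for kidney segments other than the proximal tubule (7 of 7). The immune sum had a median of 721 TPM in fed and 1145 TPM in fasted NRF mice and of 797 TPM and 661 TPM in DRF, and its part in the results was not tested.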
